A study of Rattus norvegicus with 6 samples.

Results

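Mitosis and spindle genes encode the proteins that carry a dividing cell through G2 and M phase: the kinase CDK1 with its cyclins, the kinases and motor proteins that build the spindle, the checkpoint that waits for every chromosome to be attached, and the machinery that finally cuts the cell apart. 56 such genes were chosen by name, with earlier results of these data known. Of these, 47 had a probe set with values and a single gene symbol, out of 13949 genes measured. The other 9 (Mki67, Birc5, Cenpe, Cenpf, Kif18a, Anln, Espl1, Ncapg and Ncaph) were not analysed here. Their expression was compared between 3 samples of primary rat oligodendrocyte progenitor cells (OPCs) exposed to fibrinogen for 12 h and 3 unstimulated control samples, each on an Affymetrix array. Both groups came from newborn rat pups, had recovered for 2 days in a proliferation medium with N2, B27, NT3 and PDGF, and are labelled with the same time. No source used here gives the strain, the dose of fibrinogen or whether pups were pooled. Nothing in the labels ties the replicates to separate cultures, so every p-value reflects the scatter of these samples alone, and that scatter may be technical.

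OPCs are the dividing precursors of the myelin-forming oligodendrocytes. PDGF keeps them in the cell cycle, and they leave it as they mature. Most of these genes are switched on together late in the cycle. In G1 the DREAM complex holds them down, and its MuvB core, joined later by B-Myb and FOXM1, activates them. MuvB reaches the promoters through a short element near the start of the gene, the cell cycle genes homology region (CHR), often with CCAAT boxes bound by NF-Y upstream of it.

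All values are log2 levels of probe sets, and changes are fibrinogen minus control. Array medians over all genes lay between 6.87 and 6.89 in the fibrinogen samples and between 6.85 and 6.88 in the controls. Background was read from 956 genes of olfactory and vomeronasal receptors, whose 95th percentile was 5.51, and all 47 measured members had a mean level above it. So did 71.3% of all genes, and a level above this percentile therefore does not show which cell type is present. All 10 measured OPC markers lay above it. Pdgfra, the PDGF receptor, was at 11.10 ± 0.13 in fibrinogen cells and 11.50 ± 0.05 in control cells (SD, n = 3 each). Of other cell types, 7 of 9 neuron markers lay above the percentile, and so did all 7 measured astrocyte markers. For microglia and macrophage markers this was 4 of 10, for endothelial markers 1 of 4 and for fibroblast and pericyte markers 4 of 6. Fewer dividing cells and less of these RNAs per cell cannot be told apart in such bulk samples.

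Mitosis and spindle genes were lower after fibrinogen, at 79.6% of the control level at the middle of the list. Of the 47 measured genes 13 fell, 0 rose and 34 did not pass the test (limma, Benjamini-Hochberg adjusted p under 0.05 over all 13949 genes), where 1.29% of all genes fell and 1.81% rose. At an unadjusted p under 0.05, 36 were lower and 1 was higher, against 7.46% of all genes that were lower. The fitted change was negative for 46 genes, and its median was -0.33 over the 47 genes, or 79.6% of the control level on the linear scale, against -0.0033 over all genes. Only 2.80% of all genes had a change at or below that median. In 36 members every fibrinogen array lay below every control array, as did 10.6% of all genes, and in 1 member, Cks2, every fibrinogen array lay above, as did 10.7% of all genes. The 13 genes that fell were the kinesin genes Kif20b, Kif15 and Kif11, the checkpoint genes Bub1 and Bub1b, and Melk, Aurkb, Ect2, Cdc20, Smc4, Cdc25b, Hmmr and Spc25. The number that fell depended on single arrays: it was 2, 15 and 7 without fibrinogen 1, 2 and 3, and 1, 2 and 2 without control 1, 2 and 3, while the median change stayed between -0.35 and -0.275 in these fits.

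**Figure D1:**
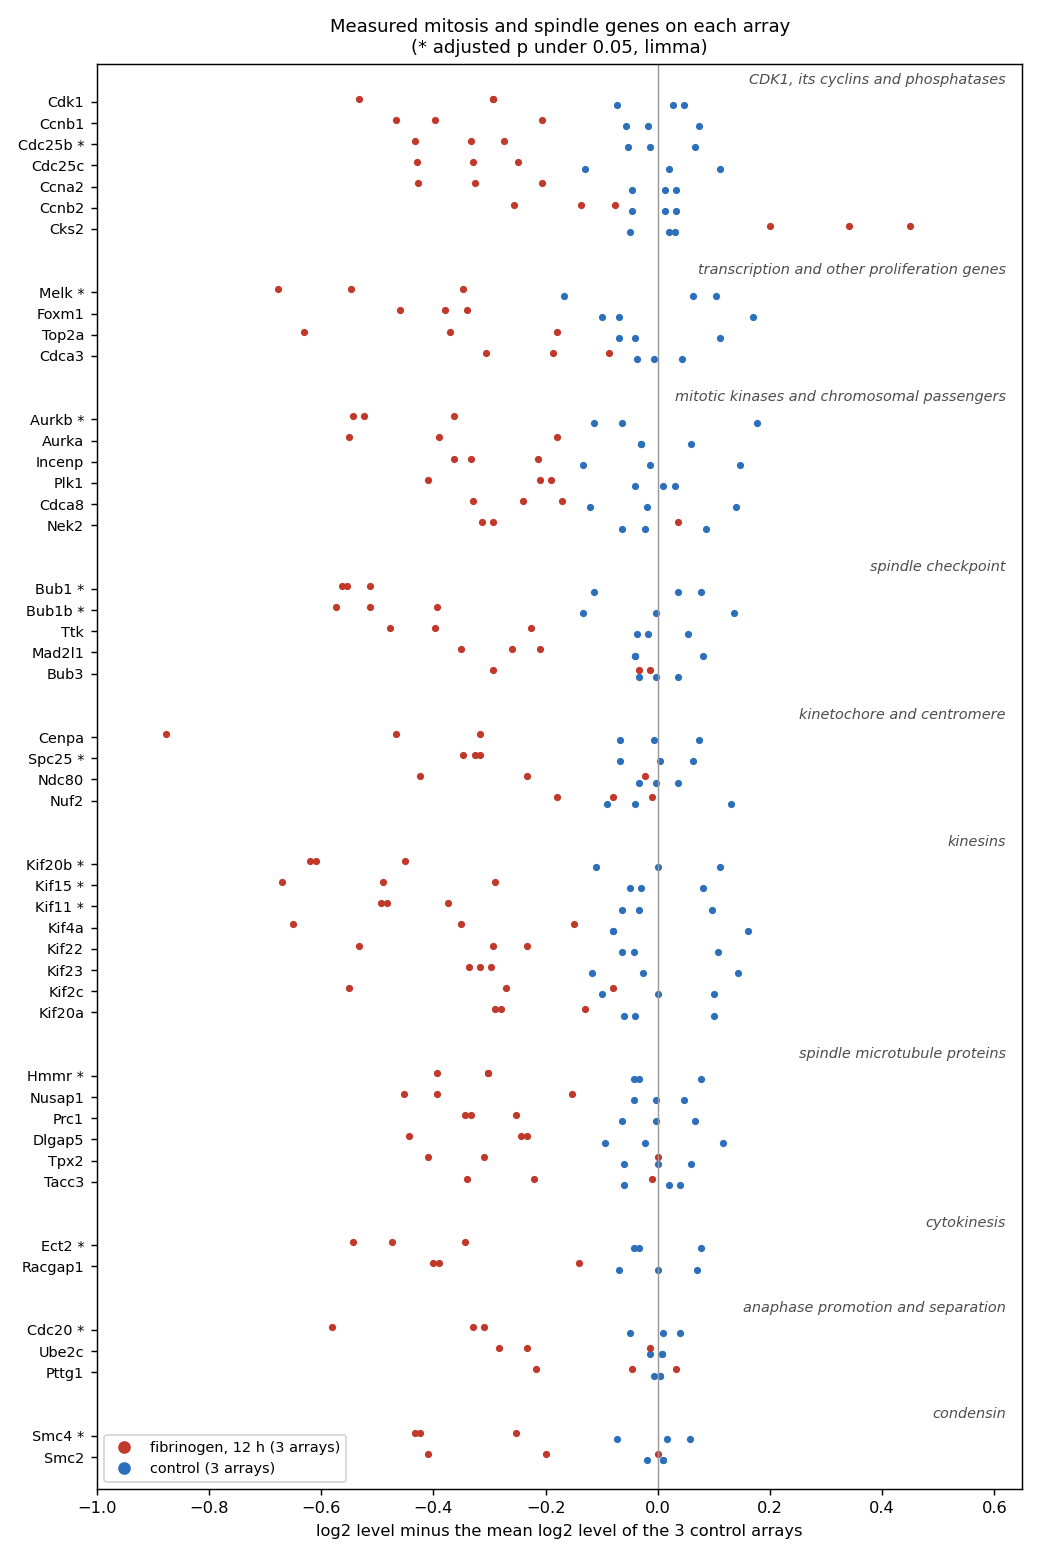
Level of each measured mitosis and spindle gene on each array, on the x axis, as log2 level minus the mean of its 3 control arrays. Genes run down the page by role, with red points for fibrinogen and blue points for control. The red points lie left of the blue ones in 36 genes and right of them in Cks2, and an asterisk marks the 13 genes that fell.

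**Figure D2:**
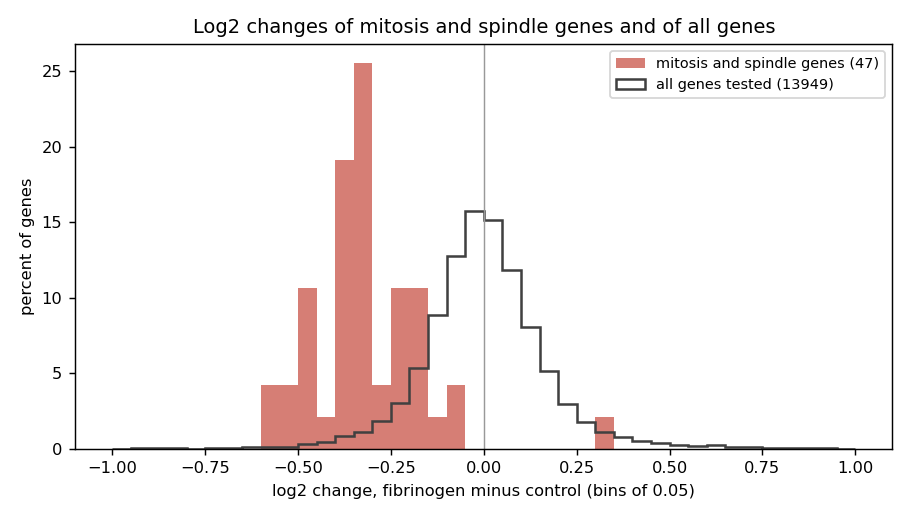
Percent of genes (y axis) in bins of the log2 change, fibrinogen minus control (x axis), for the 47 mitosis and spindle genes (filled) and all 13949 genes (outline). The members centre at -0.33 and all genes near 0, and the single bar to the right is Cks2.

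Promoter sequence shows what these genes share beside their function. RefSeq windows of 300 bases on assembly GRCr8, from 250 before to 50 after an annotated gene start, were matched by symbol for 49 of the 56 genes, with 50 windows in all because Kif2c has 2. Both strands were searched for CHR hexamers, namely the common form TTTGAA and a rarer form known from some of these genes, TTCGAA. They were also searched for the NF-Y box CCAAT. For E2F factors the letters were TTCCCGC in one search and, in another that was counted with it, TTGGCGC. A hexamer could overlap another match by its ends only. A CHR hexamer stood in 36 of the 50 member windows (72.0%), against 19.7% of all 33469 windows. Between positions -60 and 40 from the start it stood in 58.0% of member windows and in 6.04% of all windows. CCAAT stood in 74.0% against 37.5%, CCAAT at least 2 times in 52.0% against 11.2%, and one of the E2F letters in 18.0% against 6.26%. Further mitosis genes had a CHR hexamer in 50.6% of 87 windows, and DNA replication genes in 18.9% of 37. These matches are letters in a window and not shown binding sites. The 4 windows printed here belong to the genes with the largest falls among those that hold a CHR hexamer, 5′ to 3′ on the strand of the gene, with CHR hexamers and CCAAT boxes of either strand in capitals.
Kif20b (chr1:241840766-241841065, plus strand): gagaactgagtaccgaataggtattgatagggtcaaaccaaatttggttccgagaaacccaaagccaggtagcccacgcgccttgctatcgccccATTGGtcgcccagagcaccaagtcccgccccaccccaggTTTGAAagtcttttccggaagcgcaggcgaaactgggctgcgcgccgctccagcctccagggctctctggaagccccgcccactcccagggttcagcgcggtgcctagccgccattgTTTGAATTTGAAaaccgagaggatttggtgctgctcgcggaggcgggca
Bub1b (chr3:126016817-126017116, plus strand): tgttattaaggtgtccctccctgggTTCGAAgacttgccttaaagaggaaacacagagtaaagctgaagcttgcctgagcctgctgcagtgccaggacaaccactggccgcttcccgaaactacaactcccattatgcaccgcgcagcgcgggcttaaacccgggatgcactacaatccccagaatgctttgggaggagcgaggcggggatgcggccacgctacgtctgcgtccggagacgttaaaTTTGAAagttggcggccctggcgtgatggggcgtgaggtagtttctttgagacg
Kif15 (chr8:131479154-131479453, plus strand): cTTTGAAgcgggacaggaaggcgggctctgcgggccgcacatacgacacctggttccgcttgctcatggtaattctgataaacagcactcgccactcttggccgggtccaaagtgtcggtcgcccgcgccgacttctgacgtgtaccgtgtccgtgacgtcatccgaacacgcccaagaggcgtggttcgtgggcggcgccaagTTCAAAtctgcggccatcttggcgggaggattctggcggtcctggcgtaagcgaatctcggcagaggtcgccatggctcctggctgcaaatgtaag
Ect2 (chr2:111966577-111966876, minus strand): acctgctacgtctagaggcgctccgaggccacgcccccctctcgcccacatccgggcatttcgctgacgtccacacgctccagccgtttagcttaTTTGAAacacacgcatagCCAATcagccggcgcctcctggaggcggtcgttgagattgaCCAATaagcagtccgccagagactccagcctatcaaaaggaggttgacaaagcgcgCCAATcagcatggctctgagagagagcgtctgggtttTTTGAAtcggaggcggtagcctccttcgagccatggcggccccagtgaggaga
In Kif20b a pair of hexamers stands end to end in the same direction just after the start, at positions 2 and 8, with another at -116. In Bub1b, Kif15 and Ect2 the hexamer nearest the start has its first base at -4, -46 and -3. Ect2 also has 3 CCAAT boxes, whereas the windows of Bub1b and Kif15 hold none. Over all member windows there were 47 CHR matches with a median position of -42 and 84 CCAAT matches with a median of -100.5. A CHR hexamer stood in 9 of 12 windows of genes that fell and in 21 of 29 windows of measured genes that did not pass. Between positions -60 and 40 it stood in 9 of 12 against 16 of 29 windows. At least 2 CCAAT boxes stood in 4 of 12 against 19 of 29, and the E2F letters in 3 of 12 against 3 of 29. These differences were not tested. The median log2 change was -0.33 both in the 30 measured genes with a hexamer and in the 10 without. Cks2 has the hexamer too (-19, on the reverse strand), and so do Pttg1 and Nuf2, with changes of -0.08 and -0.09, while the window of Bub1 holds none of the 5 letter strings.

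**Figure D3:**
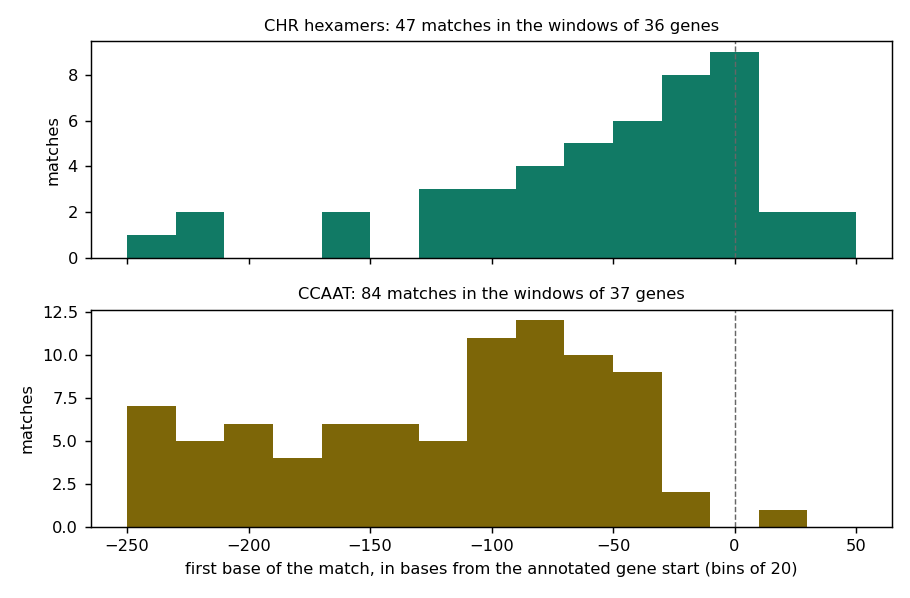
Number of matches (y axis) to the CHR hexamers (top) and to CCAAT (bottom) by the distance of their first base from the annotated gene start (x axis, bases), over the 50 promoter windows of mitosis and spindle genes. CHR matches gather just before the start, with a median of -42, and CCAAT matches lie further upstream, with a median of -100.5.

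CDK1 drives entry into mitosis once it is bound to cyclin A or B and freed of its inhibitory phosphates by CDC25 phosphatases. Of the 7 genes of this group 1 fell, Cdc25b, a phosphatase that starts CDK1 activation. Cdc25b had log2 levels of 8.27, 8.43 and 8.37 on the fibrinogen arrays, against 8.65, 8.77 and 8.69 on the control arrays, and fell by 0.35 ± 0.07 (SE; adjusted p = 0.0460, limma). Cdk1 itself was at 9.82, 9.58 and 9.82 with fibrinogen, against 10.16, 10.04 and 10.14 without, which gave a change of -0.37 ± 0.09 (SE; adjusted p = 0.0605, limma) and no call. In both genes the highest fibrinogen array lay below the lowest control array. Ccnb1, cyclin B1, was at 10.02, 9.95 and 10.21 with fibrinogen and 10.49, 10.36 and 10.40 in controls (-0.36 ± 0.09, SE, adjusted p = 0.0698, limma). Ccna2, Cdc25c and Ccnb2 had changes of -0.32, -0.34 and -0.16, none past the test. Cyclin B2 was measured by 2 probe sets, which gave the same change of -0.16.

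Cks2, a small subunit that binds CDK1 and helps it hold on to its substrates, went the other way. Its levels were 5.74, 5.99 and 5.88 in the fibrinogen samples and 5.56, 5.49 and 5.57 in the control samples, close to the receptor percentile of 5.51. The change of 0.33 ± 0.08 (SE), to 126% of the control level with a 95% interval of 110% to 143%, did not pass (adjusted p = 0.0750, limma). It passed when genes under the 30th percentile of levels were left out (adjusted p = 0.0443, limma). That filter used the mean over all 6 arrays, which the fibrinogen values of Cks2 raised, so passing it adds no separate support. Cks1b, the paralog of Cks2 in the list of further mitosis genes, had a change of -0.15 ± 0.07 (SE; adjusted p = 0.386, limma).

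Among regulators of the program and general proliferation genes, Melk, a kinase of dividing progenitors, fell. It was at 7.45, 7.78 and 7.58 with fibrinogen, against 8.23, 7.96 and 8.19 without, and fell by 0.52 ± 0.11 (SE; adjusted p = 0.0396, limma) to 69.6% of the control level. Foxm1, the transcription factor that activates many of these genes, was at 8.52, 8.60 and 8.64 in fibrinogen samples and 9.15, 8.88 and 8.91 in controls. Its groups did not overlap, yet the change of -0.39 ± 0.09 (SE) missed the threshold (adjusted p = 0.0557, limma). Top2a, the topoisomerase that untangles sister chromosomes, was at 10.31, 10.76 and 10.57 with fibrinogen and 11.05, 10.87 and 10.90 without. It had the same fitted change of -0.39 with a wider error of 0.12 (SE), and Cdca3, which helps trigger mitotic entry, had -0.19. Their adjusted p-values were 0.127 and 0.276 (limma).

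The mitotic kinases all had negative changes, and of 6 genes measured in this group, chromosomal passengers included, 1 fell. Aurkb is the kinase of the chromosomal passenger complex, which corrects faulty attachments and later guides cytokinesis. It was at 8.74, 8.72 and 8.90 on the fibrinogen arrays and 9.44, 9.15 and 9.20 on the control arrays, and fell by 0.48 ± 0.10 (SE; adjusted p = 0.0366, limma). Incenp, the scaffold of that complex, was at 8.52, 8.67 and 8.55 with fibrinogen and 9.03, 8.87 and 8.75 without. Its change of -0.30 ± 0.09 and that of Cdca8, borealin, of -0.25 ± 0.09 (SE) did not pass, although neither gene's groups overlapped. Aurka, the kinase of the spindle poles, was at 8.15, 8.52 and 8.31 with fibrinogen, against 8.76, 8.67 and 8.67 without (-0.37 ± 0.10, SE, adjusted p = 0.0908, limma). Plk1, which acts from mitotic entry to cytokinesis, had -0.27 ± 0.08 and Nek2, a kinase of centrosome separation, -0.19 ± 0.10 (SE). Nek2 is covered by 2 probe sets with identical values on every array, so the second adds no evidence.

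The spindle checkpoint held the most stable fall of the list. Bub1, a kinase that loads the checkpoint at kinetochores, was at 8.57, 8.52 and 8.53 with fibrinogen and at 9.12, 8.97 and 9.16 without. The fibrinogen values lay within 0.05 of each other and far below the controls, and Bub1 fell by 0.54 ± 0.08 (SE; adjusted p = 0.00714, limma) to 68.6% of the control level. It was also the single member that passed without each array in turn, with adjusted p-values between 0.0190 and 0.0461 (limma). Bub1b, whose product BubR1 is part of the complex that restrains CDC20, was at 8.65, 8.59 and 8.77 in fibrinogen samples and 9.30, 9.16 and 9.03 in controls, and fell by 0.49 ± 0.09 (SE; adjusted p = 0.0244, limma). Both genes were lower on every fibrinogen array than on any control array. Ttk, the kinase Mps1 at the head of the checkpoint, was at 8.38, 8.63 and 8.46 with fibrinogen and 8.91, 8.84 and 8.82 without (-0.37 ± 0.08, SE, adjusted p = 0.0552, limma), also with no overlap. Mad2l1, the checkpoint protein Mad2, had -0.27 ± 0.07 (adjusted p = 0.101), and Bub3, the partner of both Bub1 and BubR1, -0.11 ± 0.09 (SE; adjusted p = 0.622, limma). The 95% interval of Bub3, from 80.3% to 106% of the control level, does not show that it stayed level.

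Kinetochore genes varied widely, and 1 of 4 fell. Spc25, a subunit of the NDC80 complex that ties kinetochores to microtubules, was at 9.17, 9.18 and 9.15 with fibrinogen, against 9.56, 9.43 and 9.50 without, and fell by 0.33 ± 0.07 (SE; adjusted p = 0.0409, limma). Ndc80, which gives the complex its name, was at 10.03, 10.43 and 10.22 in fibrinogen samples and 10.42, 10.49 and 10.45 in controls, with fibrinogen 2 among the control values. It and its partner Nuf2 had overlapping groups and changes of -0.23 ± 0.10 and -0.09 ± 0.08 (SE; adjusted p = 0.331 and 0.689, limma). Whether the subunits differ in their change was not tested. Cenpa, the histone variant that marks centromeres, was at 7.44, 7.03 and 7.59 in fibrinogen samples and 7.98, 7.90 and 7.84 in controls. Its change of -0.55 was among the largest of the list, with fibrinogen 2 far below the other two arrays, and the test did not pass (SE 0.13, adjusted p = 0.0679, limma). It passed without fibrinogen 2, with a change of -0.39 (adjusted p = 0.0498, limma), and also without fibrinogen 3, with -0.67 (adjusted p = 0.0428, limma).

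Kinesins, the motors that build and shorten the spindle, gave 3 of the 13 falls among 8 genes, and all 8 had an unadjusted p under 0.05. Kif20b, a motor of cytokinesis, was at 7.46, 7.63 and 7.47 with fibrinogen, against 8.19, 7.97 and 8.08 without, and fell by 0.56 ± 0.09 (SE; adjusted p = 0.0115, limma) to 67.8% of the control level, the largest change of the 47. Kif11, the motor Eg5 that pushes the spindle poles apart, was at 9.07, 9.08 and 9.19 in fibrinogen samples and 9.66, 9.53 and 9.50 in controls. Kif15, which can stand in for Eg5 at the spindle, was at 7.61, 7.99 and 7.79 with fibrinogen and 8.36, 8.25 and 8.23 in controls. Both fell, Kif11 by 0.45 ± 0.08 (adjusted p = 0.0179) and Kif15 by 0.48 ± 0.10 (SE; adjusted p = 0.0424, limma), with no overlap between groups. The chromosome-bound motors Kif4a and Kif22 had changes of -0.38 and -0.35, the cytokinesis motors Kif23 and Kif20a -0.32 and -0.23, and the microtubule depolymerase Kif2c -0.30, with adjusted p-values between 0.0859 and 0.264 (limma). Of the 8 kinesin genes, Kif2c alone had groups that overlapped, through the high level of fibrinogen 2.

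Among spindle microtubule proteins 1 of 6 fell, and the fitted changes ran from -0.33 to -0.19. Hmmr, a spindle-bound protein also known as a hyaluronan receptor, was at 9.03, 9.12 and 9.12 with fibrinogen and 9.50, 9.38 and 9.39 without, and fell by 0.33 ± 0.07 (SE; adjusted p = 0.0450, limma). Nusap1, a microtubule bundler, had the same fitted change, but its fibrinogen arrays spread more, at 9.62, 9.92 and 9.68, against 10.12, 10.07 and 10.03 in controls, and it did not pass (adjusted p = 0.101, limma). Prc1, which bundles the central spindle, was at 9.86, 9.85 and 9.94 in fibrinogen samples and 10.26, 10.13 and 10.19 in controls (-0.31 ± 0.07, SE, adjusted p = 0.0573, limma). Dlgap5, which stabilises spindle fibres, had -0.31, Tpx2, the activator of Aurora A, -0.24 and Tacc3, which strengthens spindle fibres, -0.19. The last pair had overlapping groups, in each case through fibrinogen 2.

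For the end of mitosis, 1 of 2 cytokinesis genes, 1 of 3 anaphase genes and 1 of 2 condensin genes fell. Ect2, the activator of RhoA at the cleavage furrow, was at 8.53, 8.46 and 8.66 with fibrinogen and 9.08, 8.97 and 8.96 without, and fell by 0.45 ± 0.08 (SE; adjusted p = 0.0202, limma). Racgap1, which recruits Ect2 to the midzone, was at 8.81, 8.82 and 9.07 with fibrinogen and 9.28, 9.21 and 9.14 without. Its groups did not overlap either, with a change of -0.31 ± 0.09 (SE; adjusted p = 0.124, limma). Cdc20, the activator of the anaphase-promoting complex (APC/C), was at 9.35, 9.10 and 9.37 in fibrinogen samples and 9.72, 9.63 and 9.69 in controls, and fell by 0.41 ± 0.09 (SE; adjusted p = 0.0474, limma). Smc4, an ATPase of condensin, was at 9.67, 9.84 and 9.66 with fibrinogen, against 10.15, 10.02 and 10.11 without, and fell by 0.37 ± 0.08 (SE; adjusted p = 0.0447, limma). Its partner Smc2 was at 9.77, 10.18 and 9.98 with fibrinogen and 10.19, 10.19 and 10.16 in controls (-0.20 ± 0.10, SE, adjusted p = 0.397, limma), so that fibrinogen 2 reached the control range. Pttg1, securin, the inhibitor that holds separase until anaphase, was at 10.88, 11.13 and 11.05 with fibrinogen and 11.10, 11.09 and 11.10 in controls. That difference of -0.08 ± 0.08 (SE; adjusted p = 0.725, limma) was the smallest of the list, and its 95% interval ran from 83.5% to 108% of the control level. Ube2c, the ubiquitin-conjugating enzyme of the APC/C, was at 9.02, 9.07 and 9.29 with fibrinogen and 9.29, 9.31 and 9.31 without (-0.18 ± 0.08, SE, adjusted p = 0.370, limma), and fibrinogen 3 overlapped the controls.

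The fitted changes were smaller for the genes with the highest levels. Of the 11 genes with a mean log2 level above 10, 0 fell in limma (5 were lower at an unadjusted p under 0.05), with a median change of -0.23, where 1.69% of all genes at such levels fell. Of the 15 genes between 9 and 10, 6 fell, with a median of -0.33, against 2.70% of all genes there. Of the 21 genes below 9, 7 fell, with a median of -0.37, against 1.08% of all genes there, so that the share that fell did not change steadily with level. Across the 46 genes other than Cks2, level and change had a Pearson correlation of 0.51, given as a description over genes that share the same 6 arrays. Cks2, with the lowest mean level of the list (5.705) and its only positive change, goes against this trend. The correlation with Cks2 included was not computed. The value of 0.51 was obtained only with that gene left out, and it does not describe the whole list. Levels of different probe sets are not amounts of RNA, and the part of the array's response at high signal in this pattern was not tested.

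The members also moved together among arrays of the same group. Control 1 was the highest control in 38 of 47 genes (80.9%), against 33.9% of all genes, and fibrinogen 1 was the lowest fibrinogen array in 30 (63.8%), against 33.6%. The members did not stand alone as to control 1, which was the highest control in 32 of 34 DNA replication genes (94.1%). Among the fibrinogen arrays that list differed. Fibrinogen 1 was the lowest in 14 (41.2%), and fibrinogen 2 was the lowest in 14 as well. The list's median deviation was -0.145 on fibrinogen 1 and -0.195 on fibrinogen 2. The median deviation of the 47 genes from their own means was -0.24, -0.09 and -0.125 on fibrinogen 1, 2 and 3 and 0.24, 0.12 and 0.13 on control 1, 2 and 3. All genes together stayed within 0.0067 of 0 on each array. Thus control 1 and fibrinogen 1 lay furthest apart, and the other arrays still fell on either side by group. Because the genes share such swings, the 13 falls are not 13 independent observations.

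**Figure D4:**
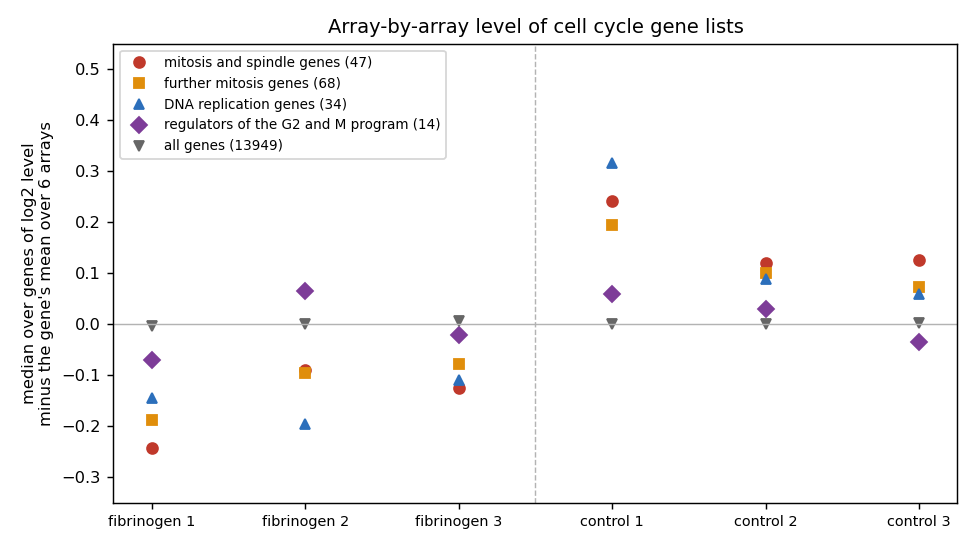
Median over genes of the log2 level minus the gene's mean over 6 arrays (y axis) on each array (x axis), for mitosis and spindle genes, 3 further cell cycle lists and all genes. Mitosis and spindle genes lie between -0.24 and -0.09 on the fibrinogen arrays and between 0.12 and 0.24 on the control arrays, with control 1 highest.

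Other genes of the cell cycle were read from lists drawn up from general knowledge, with earlier results of these data already known. Over all genes, 1.29% fell and 1.81% rose in limma, and 7.46% were lower at an unadjusted p under 0.05. Of 68 measured further mitosis genes 9 fell and 0 rose in limma (36 lower and 0 higher at an unadjusted p under 0.05), with a median change of -0.24. Fbxo5, also known as Emi1, which inhibits the APC/C, was at 7.69, 7.64 and 7.85 with fibrinogen and 8.61, 8.20 and 8.33 without, and fell by 0.65 ± 0.11 (SE; adjusted p = 0.0189, limma), more than any of the 47 members. Trip13, which takes checkpoint complexes apart, fell by 0.62 ± 0.08, the centromere gene Cenpl by 0.52 ± 0.07 and Ska3, of the complex that follows microtubule ends, by 0.49 ± 0.09 (SE). Among them 5 of 17 kinetochore and centromere genes fell and 0 of 15 spindle, centrosome and kinesin genes, of which 7 were lower at an unadjusted p under 0.05. Of 34 DNA replication genes 7 fell and 0 rose (21 and 0 at an unadjusted p under 0.05), with a median of -0.26. Pola1, of the DNA polymerase that lays down primers, fell by 0.63 ± 0.08, the replicative helicase genes Gins1 and Cdc45 by 0.62 ± 0.11 and 0.52 ± 0.10, and Rpa2, which coats single-stranded DNA, by 0.47 ± 0.07 (SE).

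Genes for the regulators of the G2 and M program (MuvB, B-Myb, pocket proteins, E2F and NF-Y) gave 0 falls and 0 rises among 14 measured in limma, with 3 lower and 0 higher at an unadjusted p under 0.05 and a median of -0.06. The share of all genes was 1.29% for falls and 7.46% for lower at that unadjusted p. The largest changes were those of the repressors E2f7 and E2f8, -0.35 ± 0.13 and -0.31 ± 0.13 (SE; adjusted p = 0.225 and 0.273, limma). Mybl2, B-Myb, was at 8.22, 8.27 and 8.42 with fibrinogen and 8.78, 8.52 and 8.34 without (-0.24 ± 0.11, SE, adjusted p = 0.358, limma). Mybl2 and Cks1b were picked once their values were known.

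Markers of cell identity moved in the same arrays. Of 10 OPC markers 3 fell, Gpr17, Pdgfra and Cspg4, and 0 rose in limma (4 lower and 1 higher at an unadjusted p under 0.05), with a median change of -0.09. Among all genes 1.29% fell and 1.81% rose, and 7.46% were lower at that unadjusted p. The higher OPC marker was C1ql1, named after its values were known, at 8.78, 9.34 and 8.83 with fibrinogen and 8.52, 8.45 and 8.41 without (0.52 ± 0.14, SE, adjusted p = 0.0923, limma). The mean log2 level of the OPC list was 10.27 to 10.33 in fibrinogen samples and 10.40 to 10.45 in controls, and its summed linear level 17231 to 18135 against 19753 to 20661. Of the 7 measured astrocyte markers 2 rose and 0 fell: Gfap by 1.24 ± 0.16 and Slc1a2, the glutamate transporter GLT-1, by 0.65 ± 0.07 (SE). At an unadjusted p under 0.05 (limma) 5 were higher and 0 lower, with a list median of 0.30. The summed linear level of the 7 was 2511 to 2773 with fibrinogen and 1751 to 1822 without. The part of a shift between cell types in the lower level of mitosis genes was not tested. Of 10 microglia and macrophage, 9 neuron, 4 endothelial and 6 fibroblast and pericyte markers, 0 passed in limma, and 0 had an unadjusted p under 0.05, with list medians of -0.03, 0.06, 0.05 and -0.09. The largest differences in these lists were those of Aif1 (0.14) and Cd68 (-0.12), Syt1 (0.30) and Dcx (-0.13), Tek (0.13) and Cdh5 (0.07), and Rgs5 (0.21) and Dcn (-0.18).

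**Figure D5:**
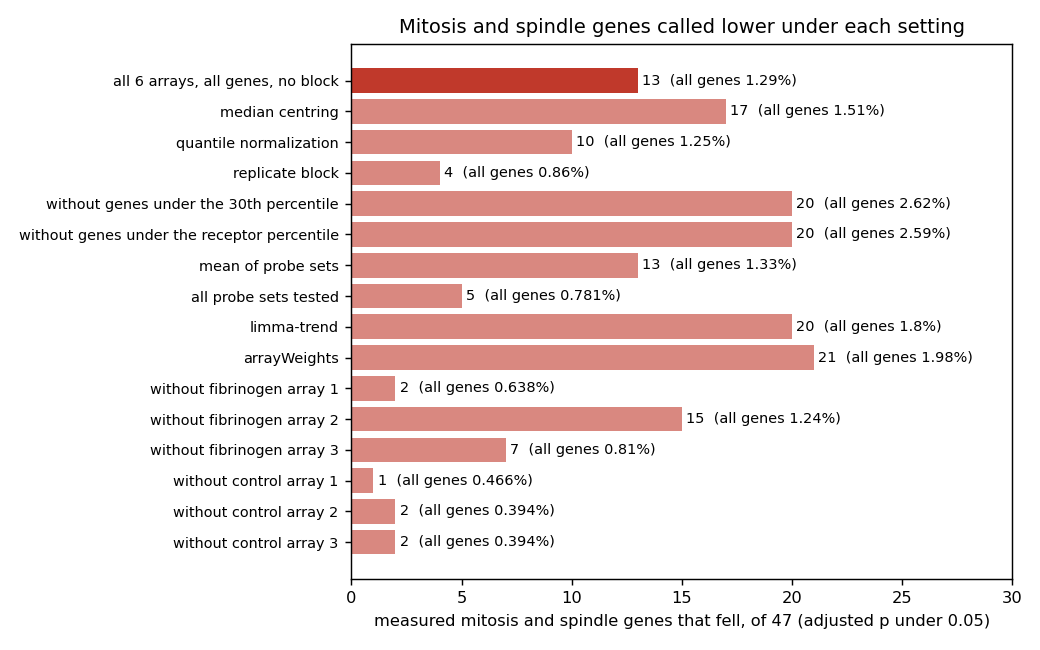
Number of the 47 mitosis and spindle genes that fell (x axis, adjusted p under 0.05, limma) under each setting (y axis), with the percent of all genes that fell beside each bar. The dark bar is the count of 13 with all arrays and genes, and the bars run from 1 without control 1 to 21 with array weights.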

How the data were processed

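Per the labels' protocols, DNase-treated RNA from RNeasy kits was amplified (NuGEN Ovation Pico WTA V2) before labelling with biotin. The deposited log2 values, 1 per probe set and array, were taken to be the authors' RMA output, since RMA stands with limma among the tools in the submitters' processing notes, with no settings. The log2 scale was inferred from the values, and scanner files were not used here. RMA brings arrays to a common distribution and can compress differences.

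Of 26312 probe sets, 1206 blank on every array were left out, and 14700 of the rest have 1 symbol in the platform's annotation. The probe set with the highest mean stood for a gene (480 genes had several). All 14672 of these probe sets whose Entrez ID matched RefSeq kept their symbol. No pair of arrays shared more than 3.635% of values, so no array was a copy. A limma model without covariates (version 3.58.1, R 4.3.3) gave each of 13949 genes a two-sided moderated test (eBayes), with Benjamini-Hochberg adjustment. SEs and 95% intervals are the moderated ones. The fit was tested on simulated data in which every gene varied independently. That simulation does not cover the swings that genes share among these arrays. With 3 arrays a group, exact permutation could reach 0.1 at best and was not used. The number of arrays limits the precision.

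The members and lists were chosen with earlier results of these data known. Values per array are given for members that passed and for up to 3 per role, and genes of other lists are the 4 largest that passed or the 2 largest. The promoter range from -60 to 40, the counts of repeated CCAAT boxes, the split by level and the array order were added after the data were seen.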

Additional observations from a re-analysis of the deposited data

How the results depend on the processing

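The direction of all 47 fitted changes was the same under every alternative run, and the list's median change stayed between -0.35 and -0.275. Falls numbered 13 as reported, 17 after median centring, 10 after quantile normalization and 13 with the mean of probe sets. The number was 20 without genes under the 30th percentile or under the receptor percentile, and 20 with limma-trend. It was 21 with array weights and 5 when all probe sets were tested together. The array weights counted fibrinogen 2 least, at 0.32, against 0.93 to 1.78 for the other arrays. Cks2 was the 1 member that rose without dim genes (either filter) and with array weights. Both filters used the mean over all 6 arrays, fibrinogen arrays included. Without 1 array, 1 to 15 members fell and 0 rose. The background moved too: 0.394% of all genes fell without control 2 or control 3, 0.466% without control 1 and 1.24% without fibrinogen 2. The cause of these differences was not tested, beside the smaller number of genes or arrays that some settings use. With the replicate number as a block, 4 members fell (Kif20b, Bub1, Ect2 and Kif11). The numbers share no stated source, and same-numbered samples had correlations of deviations of 0.03, 0.02 and 0.01, below the level taken as pairing, although each was the highest for its number. Changes of the size seen here, near the median of -0.33, lie close to what 3 arrays a group can separate, with a median SE of 0.09.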
